A study of Mus musculus with 80 samples.

Results

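The 6 genes Arhgap27, Lgals7, Upp1, Alox5ap, Tnfrsf22 and Tmc5 were chosen by measured values, as genes lower in Sall4 KO cells that carry a mutant SALL4A than in Sall4 het cells. They are 6 of 35668 gene symbols in the 11 RNA tables at gene level, of which 13102 are listed in all 11, and all 6 also have entries in the TT2 table of transcripts. In the Sall4 KO libraries 4 of the 6 (Arhgap27, Lgals7, Upp1 and Alox5ap) were at least 2-fold lower than in Sall4 het in both replicates, as were 156 of 11151 genes (1.4%). The choice did not use the KO libraries but did use the het libraries, so this count is not independent of it. Tnfrsf22 and Tmc5 were higher in KO than in het in replicate 1 and lower in replicate 2. A description as lower in Sall4 KO than in Sall4 het thus holds in both replicates for 4 genes, though none passed the limma test. For Tnfrsf22 and Tmc5 it holds in replicate 2 only, so their direction is not resolved. After scaling, none of the 6 was 2-fold lower in the DKO than in its WT, where 3.53% of 8749 genes were. None was 2-fold lower in Sall1 KO than in Sall1 het, where 0.703% of 8250 genes were. Only 2 and 3 of the 6 were abundant enough to be counted in these pairs. Counts over so few genes cannot show whether the 6 respond in these knockouts. Upp1 had a log2 ratio of -0.99 in the DKO pair, and -1.04, past 2-fold, with values left unscaled. Arhgap27 was 2.28 FPKM and 1.64 RPKM in Sall4 KO against 1.42 FPKM in the WT of the DKO, across gene models. Upp1 was 391 FPKM and 383 RPKM against 425 FPKM, and Alox5ap 27.8 FPKM and 1.18 RPKM against 3.96 FPKM.

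The series examined the zinc finger transcription factors SALL4 and SALL1 together with TET1 in mouse embryonic stem (ES) cells, pluripotent cells that divide indefinitely in culture. Its 80 samples include 12 RNA libraries of 9 groups, and the 68 other samples were not analysed here. The Sall4 het libraries (genotype Sall4flox/-, 2 libraries) carry a floxed allele beside a null allele, and the Sall4 KO libraries (Sall4Δ/-, 2 libraries) carry the deleted allele beside it, so the het, KO and add-back cells all carry the null allele. The add-back libraries are Sall4 KO cells transfected with mutant SALL4A (2 libraries, replicate 2 labelled with a Flag-SALL4A-MUT transgene) or with WT SALL4A (1 library). The remaining groups have 1 library each: a DKO line (Sall1-/-/Sall4-/-), the WT cells for that line, Sall1 het (Sall1flox/-), Sall1 KO (Sall1Δ/-) and wild type TT2. The labels do not say which residues the mutant SALL4A changes, which promoter drives either transgene, or whether each line is 1 clone. Strain backgrounds are labelled C57BL/6J for replicate 1 and all single lines but TT2, 129P2/OlaHsd (line E14.1) for replicate 2, and (C57BL/6NCrlj x CBA/JNCrlj)F1 for TT2. The labels nevertheless point the replicates of each group to the same biological sample record, so the spread between them may be technical. The growth protocol, written for TT2, names gelatin without feeder cells and leukaemia inhibitory factor.

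The genes have unrelated roles. Arhgap27 encodes a GTPase-activating protein, which switches off small GTPases. Lgals7 encodes a galectin, a lectin that binds beta-galactosides and is best known from stratified epithelium. Upp1 encodes uridine phosphorylase, which splits uridine into uracil and ribose phosphate in pyrimidine salvage. Alox5ap encodes FLAP, the membrane protein that presents arachidonic acid to the lipoxygenase Alox5 in leukotriene synthesis, a pathway of myeloid cells. Tnfrsf22 encodes a decoy receptor that binds TRAIL without a death domain, and Tmc5 a member of the transmembrane channel-like family. SALL4 itself is a zinc finger repressor and activator of the pluripotency network, known to bind A/T-rich DNA through its last zinc finger cluster.

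The deposited values have no read totals, so depth is unknown. FPKM and RPKM are levels per kilobase of gene length, scaled to the mapped fragments or reads. Sums of values ranged from 835259 to 7359936 per table, and the 10 highest entries held from 10.2% to 79.8% of a sum. All 10 ES cell markers of a list that includes Pou5f1, Nanog and Sox2 were at 1 or more wherever listed, with summed levels from 3281 to 7242. The targeted transcript did not check the labels: Sall4 RNA was 196 FPKM and 64.2 RPKM in the libraries labelled Sall4 het and 358 FPKM and 218 RPKM in those labelled Sall4 KO. It was 77.4 FPKM and 161 RPKM in the mutant add-back and 97.4 FPKM in the WT add-back. In the library labelled DKO it was 109 FPKM, above the 17.6 FPKM of its WT. Reads from outside the deleted part, whose position the labels leave out, would still be counted, but their part in these levels was not tested. Sall1 RNA was 2.27 FPKM in the DKO and 13.9 FPKM in its WT, but 13.3 FPKM in Sall1 KO against 21.8 FPKM in Sall1 het.

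The tables rest on 2 sets of gene models, a fact that touches every comparison below and was seen only in the files. Of the symbols that each table shares with the table of Sall4 het replicate 1, 84.2% to 84.7% had identical coordinates in the replicate 2 tables and 100% in Sall4 KO replicate 1. In the tables of mutant add-back replicate 1, the WT add-back, the DKO, its WT, Sall1 het and Sall1 KO only about 24.7% did. Any difference in start or end counted, however small. The first set therefore holds the Sall4 het and KO libraries and mutant add-back replicate 2, and the second set holds the other 6 gene-level libraries. A ratio taken across the sets mixes the group with the gene models, and these cannot be told apart there. The tables were also normalised separately, so levels set side by side are as deposited, and ratios were taken after a common scaling that leaves TT2 out.

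Promoter windows are shown for the genes that were lower in KO in both replicates and have an entry in the RefSeq promoter table (build GRCm38.p6), since these members moved together. Of the 6 genes, 3 matched: Arhgap27, Lgals7 and Upp1. Each window is the 250 bases before an annotated start, printed 5′ to 3′ on the gene's strand, with every CG dinucleotide, the site of cytosine methylation, in capitals. For Arhgap27, with 2 starts in the table, the window of the outermost is chr11:103363693-103363942 (minus strand), and the other, with 5 CG, is not printed. The Lgals7 window is chr7:28864136-28864385 (plus strand). For Upp1 the windows of the outermost start, chr11:9117758-9118007, and of the innermost start, chr11:9118257-9118506, are given (both plus strand).
Arhgap27: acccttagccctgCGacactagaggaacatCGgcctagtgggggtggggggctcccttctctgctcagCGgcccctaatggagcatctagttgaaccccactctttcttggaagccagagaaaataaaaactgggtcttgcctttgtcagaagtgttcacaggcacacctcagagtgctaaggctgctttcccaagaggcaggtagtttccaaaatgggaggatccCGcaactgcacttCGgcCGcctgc
Lgals7: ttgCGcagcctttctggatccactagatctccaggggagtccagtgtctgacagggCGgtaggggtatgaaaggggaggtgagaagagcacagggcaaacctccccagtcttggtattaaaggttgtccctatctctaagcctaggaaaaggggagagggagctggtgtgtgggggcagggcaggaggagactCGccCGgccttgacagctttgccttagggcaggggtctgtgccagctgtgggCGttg
Upp1, outermost start: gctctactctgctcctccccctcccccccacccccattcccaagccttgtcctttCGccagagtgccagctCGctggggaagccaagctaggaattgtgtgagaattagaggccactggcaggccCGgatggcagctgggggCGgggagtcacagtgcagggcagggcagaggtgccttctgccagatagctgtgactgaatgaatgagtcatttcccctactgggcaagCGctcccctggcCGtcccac
Upp1, innermost start: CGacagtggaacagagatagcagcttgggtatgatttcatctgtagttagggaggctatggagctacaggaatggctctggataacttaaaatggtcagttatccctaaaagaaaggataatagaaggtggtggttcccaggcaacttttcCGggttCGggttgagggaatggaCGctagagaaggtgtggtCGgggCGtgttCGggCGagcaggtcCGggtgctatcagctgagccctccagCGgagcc

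These windows hold 6 CG in Arhgap27, 5 in Lgals7, and 6 and 10 in the Upp1 windows, beside a median of 6 CG over 32851 RefSeq promoter windows of 27025 genes, of which 92.1% hold at least 1 CG. Their G and C content was 55.2%, 58.8%, 62.4% and 52.8%, against a median of 52.4%. The letters ATATT, an A/T-rich motif searched on both strands with overlaps allowed, occurred 0 times in these windows and in 23.3% of all windows. Shares of windows with fewer CG were 49.6% for Arhgap27 and for the outermost Upp1 start, 44.4% for Lgals7 and 62.2% for the innermost Upp1 start, so the CG content of these windows lies in the middle of the range of promoters.

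**Figure D1:**
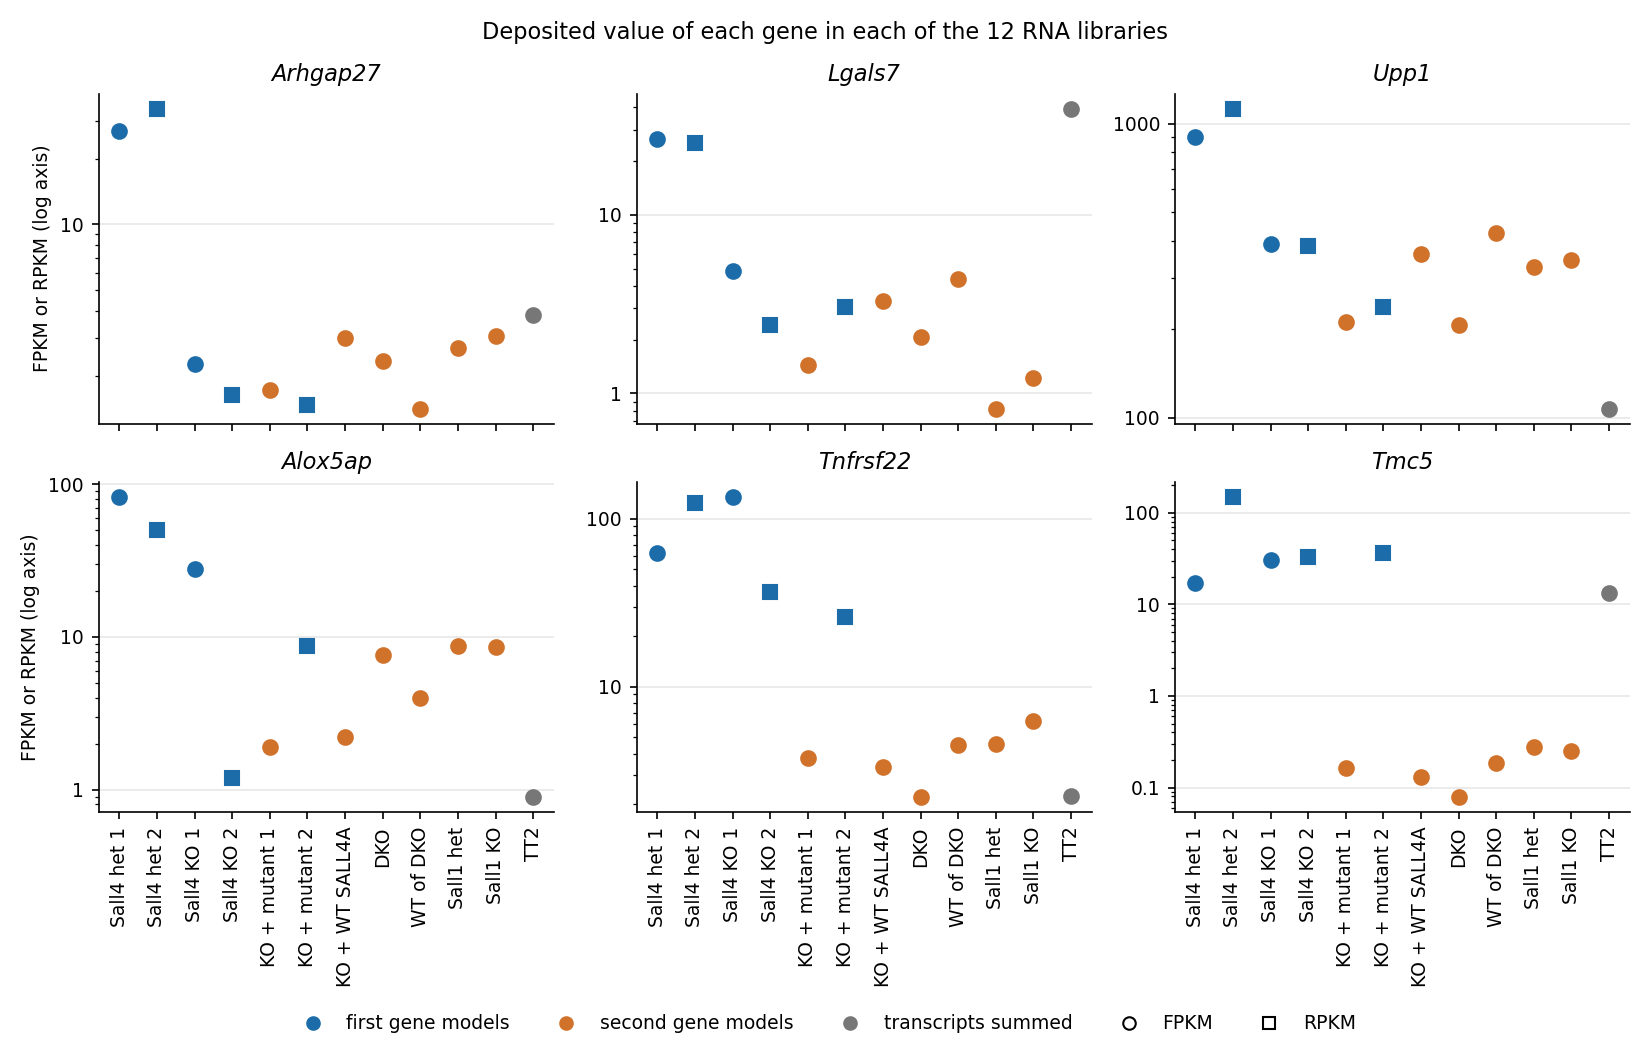
Deposited value of each gene in each of the 12 RNA libraries, on log axes in FPKM (circles) or RPKM (squares); each point is 1 library. Colours give the gene models: first set (blue), second set (orange) and summed transcripts (grey). Arhgap27 was 26.8 and 34.1 in Sall4 het and at most 3.83 elsewhere, whereas Tmc5 split by gene models.

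Arhgap27 (mm9 chr11:103192810-103225965 in the first gene models) was high in Sall4 het alone among all 12 libraries. Its level was 26.8 FPKM and 34.1 RPKM in Sall4 het, 2.28 FPKM and 1.64 RPKM in Sall4 KO, and 1.72 FPKM and 1.47 RPKM in the mutant add-back. It was 3.01 FPKM in the WT add-back, 2.35 in the DKO, 1.42 in the WT of the DKO, 2.70 in Sall1 het, 3.06 in Sall1 KO and 3.83 in TT2. The lines with no deletion of Sall4 in their labels, the WT of the DKO, Sall1 het, Sall1 KO and TT2, thus stood at 1.42 to 3.83 FPKM, far below Sall4 het. The TT2 value sums 2 transcripts (103192813-103201035 and 103192813-103206016) that cover only a part of the gene-level span. After scaling, the lower of the het libraries stood 7.36 times above the highest other gene-level library, the WT add-back. Among the KO, add-back, DKO and Sall1 lines the order of levels was not resolved, since the Sall4 KO replicates alone spanned 1.64 to 2.28.

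Lgals7 (mm9 chr7:29648871-29651303) had the same shape among the gene-level libraries but not in TT2. Its level was 26.5 FPKM and 25.4 RPKM in Sall4 het, 4.85 FPKM and 2.42 RPKM in Sall4 KO, and 1.44 FPKM and 3.07 RPKM in the mutant add-back. In the other lines this galectin stood at 3.31 FPKM (WT add-back), 2.07 (DKO), 4.37 (WT of the DKO), 0.821 (Sall1 het) and 1.23 (Sall1 KO). Wild type TT2 cells had 39.3 FPKM, the highest of the 12 libraries, while the WT cells of the DKO line had a level like that of Sall4 KO replicate 1. The lower het library, replicate 2 in RPKM, was 5.28 times above the highest other gene-level library, the WT of the DKO in FPKM, after scaling. Both het libraries stood at least 2-fold above all 9 other gene-level libraries for 3 of 9295 genes (0.0323%), which were Arhgap27, Lgals7 and Slc4a5 (3.43 times), the last named after its values were seen. The rule that chose the members used het against mutant add-back, so this count is a description, and it mixes FPKM and RPKM values.

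Upp1 (mm9 chr11:9017794-9036173 in Sall4 het replicate 1, chr11:9018105-9036173 in replicate 2) was the most abundant of the genes and differed by less. The uridine phosphorylase transcript stood at 900.4 FPKM and 1128 RPKM in Sall4 het, 391 FPKM and 383 RPKM in Sall4 KO, and 212 FPKM and 239 RPKM in the mutant add-back. It was 361 FPKM in the WT add-back, 207 in the DKO, 425 in the WT of the DKO, 327 in Sall1 het, 344 in Sall1 KO and 107 in TT2. After scaling, the lower of the het libraries stood 1.85 times above the highest other gene-level library, the WT of the DKO. In TT2, where transcripts are listed apart, the transcript from the innermost of 3 starts had 89.4 FPKM, the outermost 17.4 and the middle one 0.625.

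Alox5ap (mm9 chr5:150076633-150099621), the FLAP gene, differed widely between the libraries labelled Sall4 KO. Its level was 82.7 FPKM and 50.0 RPKM in Sall4 het, 27.8 FPKM and 1.18 RPKM in Sall4 KO, and 1.90 FPKM and 8.76 RPKM in the mutant add-back. Those libraries lay further apart, though in different units, than the het and KO libraries of replicate 1. It was 2.22 FPKM in the WT add-back, 7.62 in the DKO, 3.96 in the WT of the DKO, 8.79 in Sall1 het, 8.63 in Sall1 KO and 0.894 in TT2. After scaling, the lower het library, replicate 2, stood 1.82 times above the highest other gene-level library, Sall4 KO replicate 1. That ratio sets an RPKM against an FPKM value.

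Tnfrsf22 (mm9 chr7:150820710-150835566) and Tmc5 (mm9 chr7:125740810-125818600) followed the gene models. Tnfrsf22, the decoy receptor gene, was 62.5 FPKM and 124 RPKM in Sall4 het, 135 FPKM and 36.4 RPKM in Sall4 KO, and 26.1 RPKM in mutant add-back replicate 2. In the second gene models it was 3.78 FPKM in mutant add-back replicate 1, 3.35 in the WT add-back, 2.21 in the DKO, 4.48 in its WT, 4.59 in Sall1 het and 6.23 in Sall1 KO, with 2.25 in TT2. Tmc5 was 17.1 FPKM and 149 RPKM in Sall4 het, 30.5 FPKM and 32.7 RPKM in Sall4 KO, and 35.9 RPKM in mutant add-back replicate 2, but 0.165 FPKM in mutant add-back replicate 1. The second set also held it at 0.130 (WT add-back), 0.0788 (DKO), 0.187 (WT of the DKO), 0.277 (Sall1 het) and 0.250 FPKM (Sall1 KO), whereas TT2 had 13.3 FPKM. For both genes every library of the first set was above every library of the second after scaling. That was so at 2-fold or more for 227 of 9295 genes (2.44%), and 30 genes had the opposite order, counts that mix the units. The gap was at least 4.54 times for Tnfrsf22, an RPKM over an FPKM value, and 54.0 times for Tmc5. The outer coordinates of Tmc5 are nearly the same in the second set (125740810-125818599), and its TT2 transcript with 13.3 FPKM has these as well. Those of Tnfrsf22 differ more (150822629-150835543 in the second set). Each set is also a separate group of libraries, so for these 2 genes a difference between lines cannot be told apart from the set. Mutant add-back replicate 1 was part of what chose them.

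Tnfrsf22 has a further limit. For replicate 2, the tables hold 2 entries with its symbol and the same coordinates. The entry whose Ensembl identifier is in the reference names was 7.32 RPKM in Sall4 het, 6.4 in Sall4 KO and 3.17 in the mutant add-back. The other entry, with no name in the reference, was 117, 30.0 and 22.9 RPKM. The log2 ratio of KO over het in replicate 2 was -0.27 for the first entry and -2.04 for the other, so the lower sum in KO came almost wholly from the entry with no reference name.

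The comparison of Sall4 KO with Sall4 het asks what changed when the floxed allele was deleted, and these libraries share 1 set of gene models. The spread in the fit also drew on the mutant add-back libraries, of which replicate 1 has the second gene models. The limma fit with a replicate term found 0 of 15078 genes past an adjusted p of 0.05 (0.0%), while 1283 had an unadjusted p under 0.05, and no other tool was run. Arhgap27 was lower in KO by a log2 change of -3.40 ± 0.27 (SE, n = 2 against 2, limma adjusted p = 0.318). Lgals7 was lower by -2.60 ± 0.43 on the log2 scale (limma adjusted p = 0.362) and Upp1 by -1.42 ± 0.31 (limma adjusted p = 0.441). Alox5ap had -3.04 ± 1.31 (limma adjusted p = 0.629), which became -0.89 without KO replicate 2 and -5.19 without KO replicate 1. Tnfrsf22 had -0.36 ± 1.09 and Tmc5 -0.72 ± 1.23, with limma adjusted p of 0.970 and 0.938, and became 1.51 and 1.34 without KO replicate 2 and -2.23 and -2.77 without KO replicate 1. With only the het and KO libraries fitted, 0 of 14725 genes were called. The values were then -3.44 ± 0.29 for Arhgap27, -2.62 ± 0.30 for Lgals7 and -1.42 ± 0.27 for Upp1. Alox5ap had -3.07 ± 0.78, Tnfrsf22 -0.37 ± 0.74 and Tmc5 -0.72 ± 0.77. The het libraries also took part in choosing these genes, so lower values in KO are not independent of the choice. These are bulk libraries, in which fewer cells with a transcript and less RNA per cell cannot be told apart.

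By replicate, the log2 ratio of KO over het was -3.01 and -3.77 for Arhgap27, -2.18 and -3.0 for Lgals7, -1.16 and -1.67 for Upp1, and -1.50 and -4.56 for Alox5ap. For these 4 of the 6 members the value was at least 2-fold lower in both replicates, as it was for 156 of 11151 genes (1.4%). Tnfrsf22 had 1.14 and -1.85, a 2-fold difference in opposite directions, found for 90 of 11151 genes (0.807%). Tmc5 had 0.83 and -2.26, so its higher value in KO replicate 1 was under 2-fold.

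**Figure D2:**
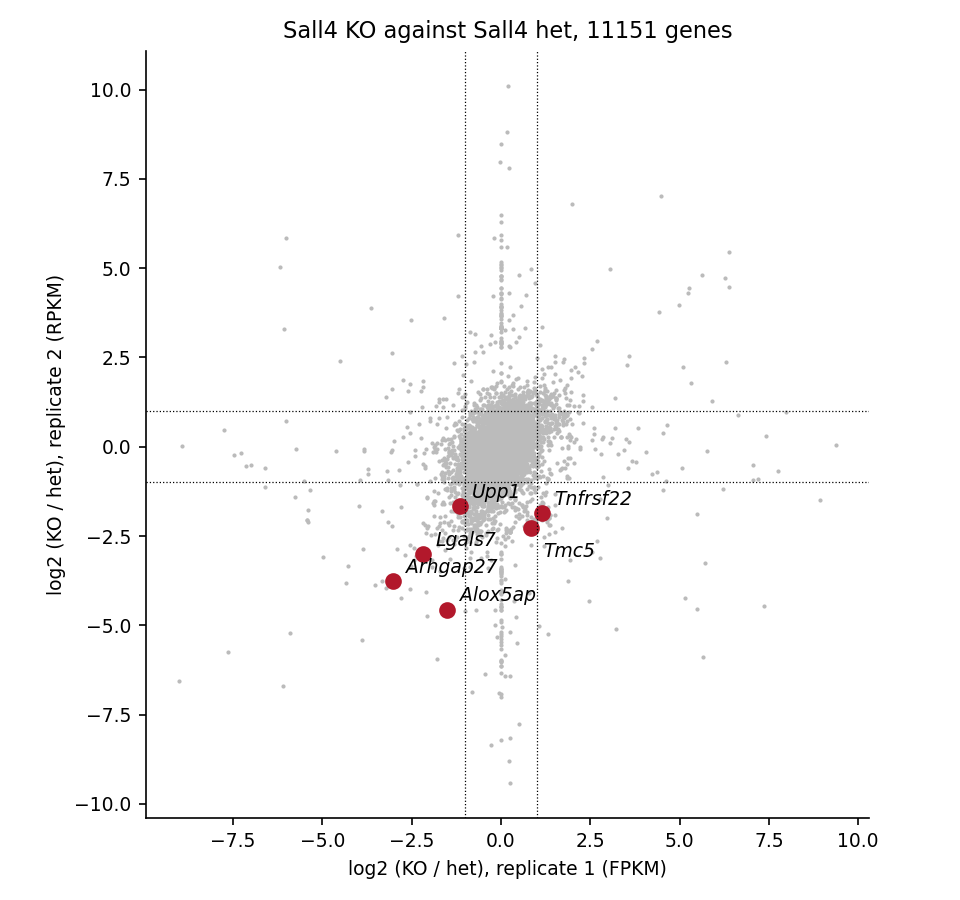
Log2 ratio of Sall4 KO over Sall4 het in replicate 1 (horizontal axis, FPKM) and replicate 2 (vertical axis, RPKM) for 11151 genes (grey), with the 6 members in red and dotted lines at 2-fold. Arhgap27, Lgals7, Upp1 and Alox5ap lie in the lower left corner, past 2-fold in both replicates, and Tnfrsf22 and Tmc5 lie right of 0.

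The mutant add-back was set beside its parent KO, and no difference passed the test for any of the 6 genes. In limma 0 of 11632 genes were called for mutant add-back against KO (0.0%), with 1135 at an unadjusted p under 0.05, but 329 were called without mutant replicate 1 and 787 without mutant replicate 2, none of them a member. Arhgap27 differed by 0.01 ± 0.27 on the log2 scale (limma adjusted p = 0.988), Lgals7 by -0.29 ± 0.42 and Upp1 by -0.47 ± 0.35 (limma adjusted p = 0.822 and 0.657). Alox5ap differed by -0.35 ± 1.28, Tnfrsf22 by -2.36 ± 1.07 and Tmc5 by -2.08 ± 1.20 (limma adjusted p = 0.932, 0.548 and 0.595), and the value of Alox5ap became 1.60 without mutant replicate 1. Those of Tnfrsf22 and Tmc5 became -0.49 and -0.02 without KO replicate 1 and -4.23 and -4.12 without KO replicate 2. The values of Tnfrsf22 and Tmc5 combine a replicate 1 ratio across gene models with a replicate 2 ratio within them, and the mutant libraries took part in the choice of all 6.

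Replicate 2 gives the same comparison within 1 set of gene models and 1 unit. There the log2 ratio of mutant add-back over KO was 0.13 for Arhgap27, 0.52 for Lgals7, -0.31 for Upp1, -0.11 for Tnfrsf22 and 0.49 for Tmc5, all under 2-fold. Alox5ap was the exception with 2.41, from 1.18 to 8.76 RPKM, still below the 50.0 RPKM of het replicate 2. A 2-fold higher value in that pair was found for 1733 of 11001 genes (15.8%), and for 1 of the 4 members that pass the level of 5 there. Against het, the contrast that chose the genes, the replicate 2 log2 ratios were -3.64 for Arhgap27, -2.48 for Lgals7, -1.98 for Upp1, -2.15 for Alox5ap, -1.96 for Tnfrsf22 and -1.77 for Tmc5, 2-fold lower for all 6 where 542 of 11066 genes were (4.9%), or 992 of 10942 with values left unscaled. In replicate 1, across gene models, they were -3.09, -3.24, -1.75, -4.58, -3.44 and -3.79 in the same order, beside 1139 of 8427 genes at 2-fold lower (13.5%), or 1791 of 8457 unscaled. The fitted log2 changes of that contrast over both replicates, given as a description with no test, were -3.39, -2.88, -1.89, -3.38, -2.72 and -2.80.

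The WT add-back asks whether unmutated SALL4A restores a gene. It shares gene models with mutant add-back replicate 1, and each has 1 library, so the ratios have no replicate check. The log2 ratio of WT over mutant add-back was 0.54 for Arhgap27, 0.81 for Lgals7, 0.71 for Upp1, 0.12 for Alox5ap, -0.18 for Tnfrsf22 and -0.06 for Tmc5. None reached 2-fold, which 176 of 8419 genes did (2.09%), and Upp1 alone passed the level of 5 asked of such pairs. Against Sall4 het replicate 1, across gene models, the WT add-back was lower by log2 ratios of -2.55 for Arhgap27, -2.43 for Lgals7, -1.04 for Upp1, -4.46 for Alox5ap, -3.62 for Tnfrsf22 and -3.84 for Tmc5. All 6 were 2-fold lower, as were 12.9% of 8345 genes. Het replicate 1 took part in choosing the genes, so that count is not independent of the choice. Against Sall4 KO replicate 1, also across gene models, they were 0.46, -0.25, 0.12, -2.96, -4.75 and -4.67 in the same order. None of the 4 that pass the level of 5 was 2-fold higher, beside 8.75% of 8403 genes. With either transgene the levels of Arhgap27, Lgals7 and Upp1 lay below both het libraries.

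The other knockout pairs share unit and gene models and have 1 library on each side. In the DKO against its WT the log2 ratio was -0.99 for Upp1, the largest difference among the 6 in this pair, from 425 to 207 FPKM. Lgals7 had -0.78, Tnfrsf22 -0.75 and Tmc5 -0.14, while Arhgap27 (0.50) and Alox5ap (0.84) were higher in the DKO. None reached 2-fold lower, as 309 of 8749 genes did (3.53%), and 2 of the 6 passed the level of 5. That count depends on the scaling, since Upp1 had -1.04, past 2-fold, with values left unscaled. In Sall1 KO against Sall1 het the log2 ratios were 0.14 for Arhgap27, 0.30 for Lgals7, 0.07 for Upp1, -0.02 for Alox5ap, 0.37 for Tnfrsf22 and -0.03 for Tmc5. None was 2-fold lower, beside 0.703% of 8250 genes, with 3 of the 6 at the level of 5. For each of the 6 genes the Sall1 libraries were closer to each other than the DKO was to its WT. The same went for genes at large. In the Sall1 pair 58 were 2-fold lower and 51 higher of 8250, against 309 and 435 of 8749 in the DKO pair.

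**Figure D3:**
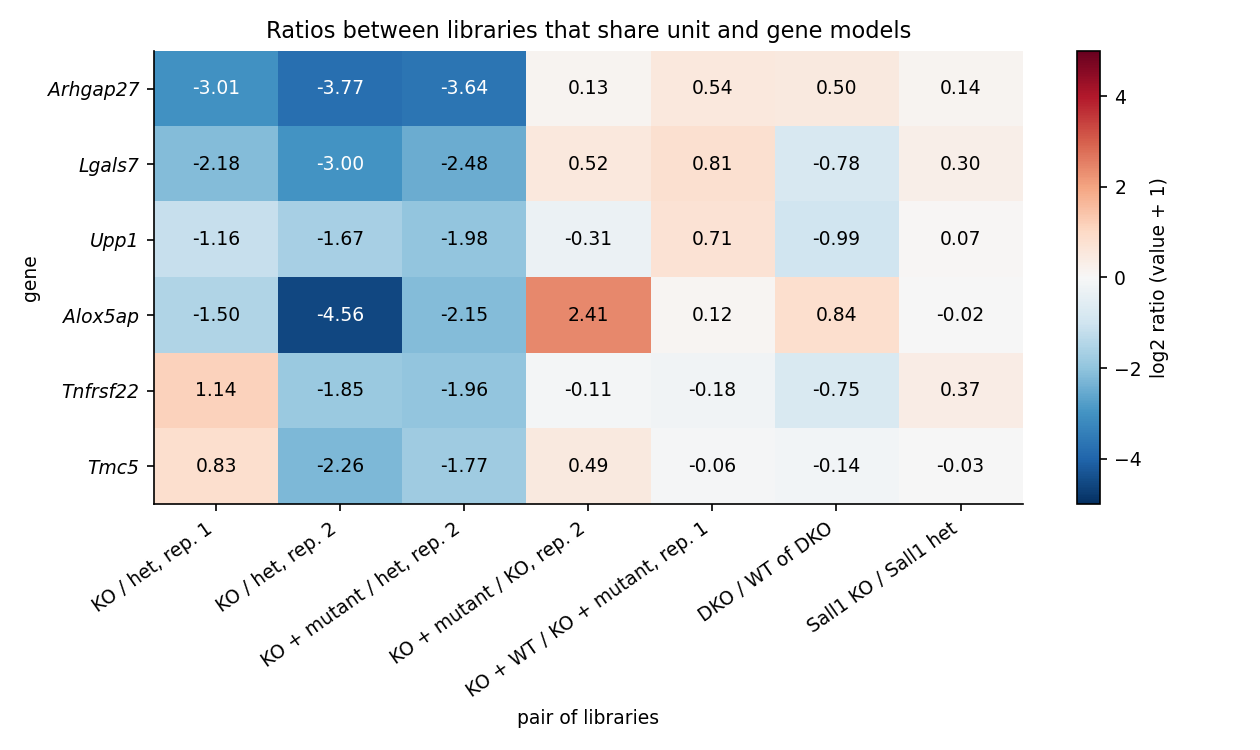
Log2 ratios, on values plus 1, of the 6 members (vertical axis) in the 7 pairs of libraries that share unit and gene models (horizontal axis); blue is lower and red is higher in the first-named library. The columns of KO over het are blue for 4 genes in both replicates, and the columns of the DKO and of Sall1 KO lie between -0.99 and 0.84.

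Control lines placed the het level itself. Sall4 het replicate 1 over the WT of the DKO gave log2 ratios of 3.35 for Arhgap27, 2.17 for Lgals7, 0.88 for Upp1, 3.89 for Alox5ap, 3.35 for Tnfrsf22 and 3.78 for Tmc5. Of the 6, 5 were 2-fold higher in Sall4 het, as were 15.7% of 8554 genes. Over Sall1 het the values were 2.73, 3.75, 1.26, 2.91, 3.32 and 3.67, 2-fold higher for all 6 beside 13.5% of 8404 genes. Both ratios cross gene models, and het replicate 1 took part in choosing the genes, so these counts are not independent of the choice. The line, the strain history, the level of feeder markers (given below) and the gene models cannot be told apart there. The 2 control lines of the second set differed from each other by log2 ratios (WT of the DKO over Sall1 het) of -0.62 for Arhgap27, 1.57 for Lgals7, 0.38 for Upp1 and -0.98 for Alox5ap. The levels of Lgals7 behind this, 4.37 and 0.821 FPKM, are under the level of 5, and neither of the 2 members that pass it differed by 2-fold, as 488 genes did downwards and 540 upwards of 8684.

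Y-linked genes were also low in the KO and add-back libraries. All 4 fitted Y-linked genes were lower in KO than in het, with a median log2 change of -1.71 against -0.02 over all 15078 genes, and 0 were called. Eif2s3y, a translation factor gene on the Y chromosome, was 12.3 FPKM and 33.1 RPKM in het and 0.0391 FPKM and 1.39 RPKM in KO. The summed level of the list, of which 8 genes are listed in most tables, 7 in TT2 and 5 in those of replicate 2, was 19.8 and 45.6 in Sall4 het, 1.30 and 2.29 in KO, 2.53 and 1.85 in the mutant add-back and 0.274 in the WT add-back. It was 74.0 in the DKO, 65.5 in its WT, 64.1 in Sall1 het, 49.9 in Sall1 KO and 7.91 in TT2. The Y-linked genes thus separated het from KO and add-backs as Arhgap27 and Lgals7 did, but were high in the DKO and Sall1 lines, where Arhgap27 was low. Their part in the result was not tested.

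Markers of other cell types are given as levels. Of 12 keratinocyte markers, relevant to Lgals7, at most 3 were at 1 or more in a library, Krt5, Trp63 and Dsg3 were at or near 0 wherever listed (at most 0.153), and the summed level was 12.7 and 21.2 in het, 8.51 and 3.62 in KO, and 5.72 to 11.5 in the second set. Of the 3 fitted, 1 was higher and 2 lower in KO with a median log2 change of -0.14 and 0 called. Krtdap, a secreted keratinocyte protein, had 4.89 FPKM and 13.4 RPKM in het against 0 and 1.06 in KO (log2 change -2.65 ± 0.45, limma adjusted p = 0.363), while Sbsn, another, had 5.24 and 0.596 in het and 5.98 and 0.613 in KO. Of 12 macrophage and myeloid markers, relevant to Alox5ap, Ptprc and Csf1r were at or near 0 wherever listed (at most 0.378), and the sum was 40.4 and 26.2 in het and 46.7 and 53.5 in KO. The 3 fitted were all higher in KO, with a median log2 change of 0.15 and 0 called. Laptm5 was 14.1 FPKM and 8.46 RPKM in het and 19.9 and 25.2 in KO. Cd68 was 10.7 and 10.5 in het and 8.71 and 16.9 in KO, and Coro1a 9.11 and 6.95 in het and 7.08 and 10.4 in KO. Lyz2, a macrophage lysozyme, was listed at 0 in Sall4 het and KO replicate 1 and at 20.6 and 18.8 FPKM in Sall1 het and KO, where Alox5ap was 8.79 and 8.63. The part of these cell types in the results was not tested. Primitive endoderm markers had a median log2 change of 0.98 in KO (6 of 7 higher, 0 called), with Col4a1, a basement membrane collagen, at 8.14 FPKM and 3.09 RPKM in het and 19.3 and 11.7 in KO. Sparc, which holds most of the summed level of that list, went the other way with 219 and 101 in het and 148 and 71.4 in KO, and the sum was 262 and 127 in het and 227 and 123 in KO. Feeder markers had a median of 0.44 (5 of 7 higher, 0 called) and trophoblast markers 0.25 (6 of 7 higher, 0 called). The summed level of feeder markers was 54.9 and 47.8 in Sall4 het, 113 and 37.2 in KO, and 16.4 and 9.36 in the mutant add-back. It was 25.2 in the WT add-back, 318 in the DKO, 309 in its WT, 187 in Sall1 het, 180 in Sall1 KO and 4.62 in TT2. Fewer of these markers are listed for replicate 2, and their part in the results was not tested.

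Other genes of each pathway were tested in the same fit. Of 6 other genes fitted from the galectin list, which are 5 galectins and the galectin-binding protein gene Lgals3bp, 4 were higher and 2 lower, with a median of 0.20 and 0 called. Lgals3, a galectin of many tissues, was 57.3 FPKM and 46.1 RPKM in het and 145 and 117 in KO (log2 change 1.28 ± 0.41, limma adjusted p = 0.525), opposite to Lgals7. Lgals1 was 137 and 139 in het and 260 and 238 in KO. Lgals9 was lower in KO like Lgals7, with 5.65 and 5.83 in het and 2.48 and 2.02 in KO (-1.07 ± 0.26, limma adjusted p = 0.458).

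Of 19 other genes of pyrimidine salvage and synthesis, 6 were higher and 13 lower in KO, with a median log2 change of -0.07 and 0 called. Uck2, a uridine kinase that uses the substrate of Upp1, was 69.7 FPKM and 1453 RPKM in het and 311 and 3047 in KO (1.56 ± 0.41, limma adjusted p = 0.478). Slc29a1, a nucleoside transporter, was 152 and 217 in het against 131 and 225 in KO. Of 15 other leukotriene and eicosanoid genes, 8 were higher and 7 lower, with a median of 0.03 and 0 called. Alox5, the partner of Alox5ap, was under 1 in all 12 libraries (at most 0.984), and Lta4h, which makes leukotriene B, was 37.5 FPKM and 24.7 RPKM in het against 33.8 and 32.6 in KO. Ggt1, a gamma-glutamyl transferase, was the member of that list with 2-fold lower values in both replicates, with 37.8 and 7.25 in het and 9.52 and 1.99 in KO (named after its values were seen). Of 12 other TRAIL and death receptor genes, 8 were higher and 4 lower, with a median of 0.10 and 0 called. Tnfrsf10b, the TRAIL receptor that signals death, was 8.62 FPKM and 8.45 RPKM in het and 8.87 and 10.1 in KO. All 3 other fitted genes of the TMC list were lower with a median of -0.05 and 0 called, led by Tmc6 with 25.2 and 15.8 in het and 15.6 and 12.5 in KO.

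Most genes next to the members differed by less than 2-fold. Of 24 neighbours, the 2 nearest on each side by the coordinates of the first gene models, 16 passed a level of 5, and 0 of these were 2-fold lower or higher in both replicates. Plekhm1, whose gene ends 0.436 kb from Arhgap27, was 11.3 FPKM and 8.85 RPKM in het and 9.68 and 10.6 in KO (log2 change -0.02 ± 0.22, limma adjusted p = 0.994). Around Lgals7, the log2 change was 0.12 ± 0.25 for Ech1, 0.06 ± 0.32 for Actn4 and -0.06 ± 0.31 for Eif3k. Hus1, a DNA damage checkpoint gene 106.5 kb from Upp1, was 19.4 FPKM and 19.0 RPKM in het and 9.53 and 9.82 in KO (-0.95 ± 0.21, limma adjusted p = 0.441). The largest change among neighbours was that of Gm11991, a predicted gene beside Hus1, at -2.72 ± 1.4 (limma adjusted p = 0.703), from 106 to 1.75 RPKM in replicate 2 but 29.4 to 26.4 FPKM in replicate 1. Tnfrsf23, the paralogous decoy receptor 16.1 kb from Tnfrsf22, was 0.547 FPKM and 0.664 RPKM in het and 1.61 and 1.31 in KO (0.57 ± 0.21, limma adjusted p = 0.573). Around Tmc5, Gde1 differed by -0.34 ± 0.23 and Coq7 by -0.37 ± 0.40.

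**Figure D4:**
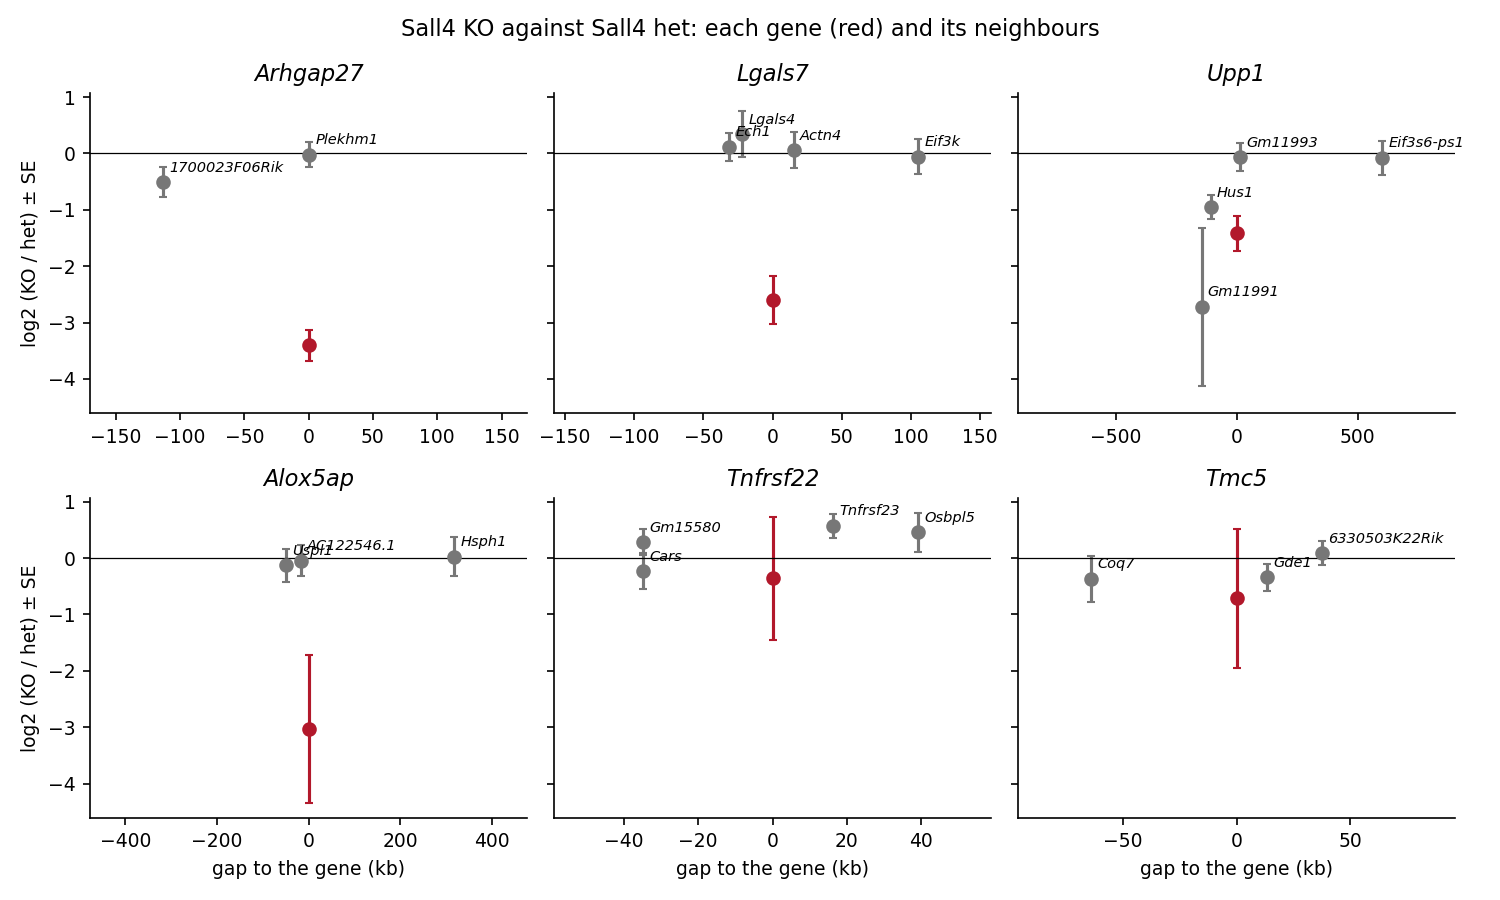
Log2 change of Sall4 KO over Sall4 het (vertical axis, with standard error from limma) for each member (red, at 0) and the fitted ones of its nearest 2 genes per side (grey), by the gap between genes in kb (horizontal axis, negative towards lower coordinates). Plekhm1 at 0.436 kb lies at -0.02 beside Arhgap27 at -3.40, and beside Upp1 at -1.42 lie Hus1 at -0.95 and Gm11991 at -2.72.

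The genes most like the members in profile were sought over the 8 FPKM libraries at gene level, among 8286 genes, by Pearson r with the members' mean profile. They were Nkiras1 (0.994), Zfp444 (0.984), Prmt3 (0.982), Lrrc27 (0.982), Srebf1 (0.982), Sbf2 (0.981), Csl (0.980) and Tmed5 (0.980), as a description with no test. These libraries share 2 sets of gene models, and the members themselves had r from 0.822 to 0.909. In replicate 2, which the ranking did not use, the log2 ratio of KO over het was -0.37 for Nkiras1, 0.51 for Zfp444, -0.11 for Prmt3, -0.72 for Lrrc27, -0.30 for Srebf1, 0.06 for Sbf2, -0.07 for Csl and -2.08 for Tmed5. Only Tmed5 among the 8 was 2-fold lower there, from 232 to 58.7 RPKM, and its levels (59.9 FPKM in het replicate 1, 3.47 in mutant add-back replicate 1, 282 RPKM in mutant add-back replicate 2) also split by gene models.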

How the data were processed

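RNA was measured by sequencing in 12 libraries of mouse ES cells. Per the submitters' processing notes the series used TopHat, Bowtie 0.12.7, SAMtools and MACS 1.4.2 with build mm9, in roles not given in the sources used here. Per the file headers, the deposited FPKM values cover 9 libraries, and the deposited RPKM values cover the replicate 2 libraries.

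Entries that share a symbol were added up. Each library was scaled to the others (median ratio, genes reaching 1 everywhere), 1 was added and log2 taken, so changes of low genes are understated. limma 3.58.1 (R 4.3.3, eBayes with a trend) was run on genes reaching 1 in 2 or more of the 6 het, KO and mutant add-back libraries, with group and replicate as terms, two-sided tests and Benjamini-Hochberg adjustment at 0.05. KO against het used genes listed in its 4 libraries, mutant comparisons those listed in all 6. Pairs of single libraries got a log2 ratio and no test, for genes reaching 5 in either library, with a limit of 2-fold. TT2 is given as deposited, summed over transcripts. Tables and plots were made with Python 3.11.15 (pandas 2.3.3, numpy 2.4.6, matplotlib 3.10.9), and scripts were tested on simulated data.

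The members and lists were chosen with earlier results of these data known. Beyond the members, the text names their nearest 2 genes per side, the 8 genes of most similar profile, up to 4 abundant members of each list, and Sall4 and Sall1. A further gene list that was examined is not reported here. The comparison of gene models, the replicate 2 pairs and the split of Tnfrsf22 entries were added after the data were seen. Alternatives were another pseudocount, filter and scaling, no replicate term, the highest entry per symbol, and each library left out.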

Additional observations from a re-analysis of the deposited data

Results flagged for a closer look

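Arhgap27 and Alox5ap were lower in Sall4 KO than in Sall4 het in both replicates, but higher in the DKO than in its WT, with log2 ratios of 0.50 for Arhgap27 and 0.84 for Alox5ap. The levels behind these ratios were 1.42 and 2.35 FPKM for Arhgap27 and 3.96 and 7.62 FPKM for Alox5ap, in 1 library each, so the difference between the contrasts was not tested. Both knockouts lack SALL4 by label, and the pairs differ in gene models and in the level of the control line.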

How the results depend on the processing

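Sall4 KO against het called 0 genes under every alternative run. Mutant add-back against KO called 0, but from 0 to 787 with 1 library left out: 329 without mutant add-back replicate 1 and 787 without replicate 2, where the remaining mutant library decides the value with its spread taken from the other groups. With no replicate block both counts were 0, with 890 and 961 genes at an unadjusted p under 0.05 instead of 1283 and 1135. The block stayed in because replicates 1 and 2 carry different units; deviations from the group means correlated by 0.579 between het and KO, 0.105 between het and mutant add-back and 0.064 between KO and mutant add-back over 11632 genes, so the numbers do not pair all samples, and the block changed no other call.

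Of 246 member values in the fits under alternatives, 229 kept their direction and their side of the threshold and 10 reversed. The rest belong to mutant add-back against het with 1 mutant library left out. That contrast chose the genes, so no test is read from it. Alox5ap in KO against het ranged from -5.19 to -0.89. With 1 library left out, KO against het ranged from -2.23 (without KO replicate 1) to 1.51 (without KO replicate 2) for Tnfrsf22, which was 0.0038 without het replicate 2, and from -2.77 to 1.34 for Tmc5 without the same KO libraries. Mutant add-back against KO ranged from -0.23 (without KO replicate 2) to 0.26 (without KO replicate 1) for Arhgap27, which was -0.12 without mutant replicate 1 and -0.18 with no scaling. It ranged from -0.89 to 0.32 for Lgals7 and from -2.49 to 1.80 for Alox5ap without KO replicate 2 and 1, and was 0.25 and 1.60 without mutant replicate 1. No scaling shifts the median of all genes in that comparison to -0.28. Of 302 ratios of single pairs, 297 kept their side of the 2-fold limit and 5 did not, though a pseudocount of 5 took the median of the members that pass the filter from -3.09 to -1.90 for the WT add-back over het and from -3.82 to -2.37 over KO; 1 member, Upp1, became 2-fold lower in the DKO with no scaling (-1.04), against 0 otherwise. The ranking of similar profiles shared 0 of 8 genes under Spearman rank correlation, 2 without standardised profiles and 0 without het replicate 1. Apart from what the alternatives' own construction shows, the cause was not tested. Depth is unknown, so no counting error could be given.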
